A study of Mus musculus with 6 samples.

Results

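Metalloproteinases and their inhibitors were followed as a set of 73 genes, out of 18211 genes in the deposited table. The members were found by gene symbol and comprised 19 matrix metalloproteinases (MMPs), 4 tissue inhibitors of metalloproteinases (TIMPs), 26 ADAMs, 19 ADAMTS proteases and 5 ADAMTS-like genes. The study compared oligodendrocyte precursor cells (OPCs) isolated from the brains of C57BL/6 mice at P7. DISC1-Δ3 mice carried NG2-CreERTM together with DISC1 exon3 fl/+, so that a Cre recombinase driven by the NG2 promoter removes exon 3 from 1 allele of Disc1 once tamoxifen is given. Wildtype mice are described as non-CreERT in the study's text. Both groups received tamoxifen by gavage on 4 days, from P4 to P7. The NG2 promoter is also active in pericytes, and the presence of Cre cannot be told apart from the loss of exon 3 in this design. Cells were captured with a Pdgfrα antibody, and poly(A) RNA was sequenced in 3 libraries per genotype. Nothing in the labels says whether the replicates came from separate animals, so the p-values measure the spread between these samples.

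MMPs are zinc proteases that cut collagens and other parts of the extracellular matrix, either after secretion or while anchored in the cell membrane, and TIMPs block them by occupying the catalytic site. ADAMs are membrane proteins, many of which release the outer part of other membrane proteins such as growth factors and Notch receptors. ADAMTS proteases are secreted and include the enzymes that cut lecticans, the proteoglycans of the brain matrix around cells and synapses, while ADAMTS-like proteins lack a protease domain. In the brain these enzymes are known for remodelling the matrix around growing glial processes and for setting the supply of signals at the cell surface.

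The libraries held 13716619 to 16417219 reads assigned to genes. Disc1 itself had an RPKM (the reads of a gene scaled by its transcript length and by the library total) of 3.51, 3.34 and 3.81 in wildtype and of 2.86, 2.44 and 2.85 in DISC1-Δ3, without overlap; a value over the whole gene does not show the loss of exon 3. The libraries were labelled as OPCs, yet the summed RPKM of 9 microglial markers was 11838 to 12105 in wildtype, against 452 to 470 for 6 OPC markers. In DISC1-Δ3 all 9 microglial markers were lower, with a sum of 8343 to 8649, while 4 of the 6 OPC markers were higher and 1 was lower, with a sum of 549 to 568. Of 8 oligodendrocyte markers 5 were lower (2246 to 2275 against 2079 to 2111), and of 6 astrocyte markers 4 were lower and 1 was higher (1165 to 1193 against 1116 to 1148). Markers of pericytes and smooth muscle were higher in 5 of 5 genes (68.2 to 77.6 against 104 to 109), those of endothelium in 3 of 5 (90.2 to 94.8 against 121 to 122), those of neurons in 5 of 6 (129 to 134 against 161 to 169) and those of erythroid cells in 3 of 3 (4382 to 4568 against 9267 to 10244). Of 4 tested neutrophil markers 2 were lower (155 to 173 against 121 to 133), of 4 border macrophage markers 1 was lower (57.9 to 59.7 against 58.9 to 61.5), and of 4 fibroblast markers none passed edgeR's test in either direction, at an unadjusted p under 0.05 too, while limma called 1 higher (23.5 to 25.2 against 26.8 to 29.5). No listed marker was at 0 in every library. The metalloproteinases below are expressed in several of these cell types, the part of each cell type in their differences was not tested, and in such bulk libraries fewer cells of a type cannot be told apart from less RNA per cell.

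**Figure D1:**
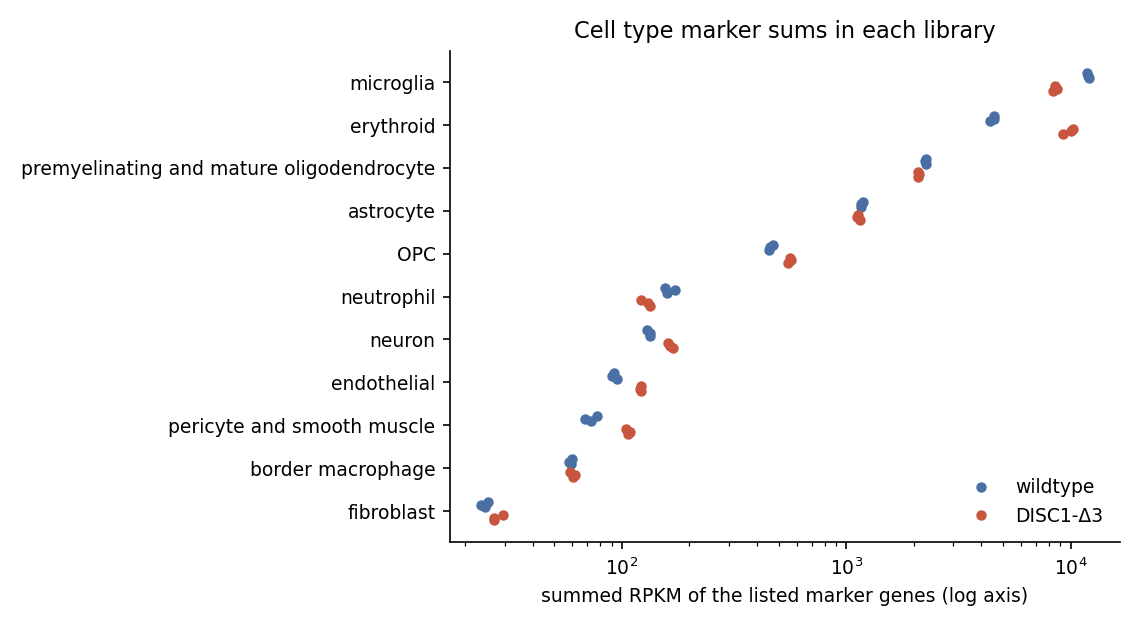
Summed RPKM of marker genes (horizontal, log axis) for 11 cell type lists (vertical), with 1 point per library, 3 wildtype and 3 DISC1-Δ3. The microglial sum is the highest of the 11 in the wildtype libraries and lower in DISC1-Δ3, while the OPC, neuron, endothelial, pericyte and erythroid sums are higher in DISC1-Δ3.

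Of the 73 members, 47 reached an RPKM of 0.5 in at least 3 libraries and were tested on reads by quasi-likelihood in edgeR, where the p-values were adjusted after Benjamini and Hochberg across the 13792 genes tested. In DISC1-Δ3 10 members were higher and 9 were lower at an adjusted p under 0.05, and 28 were not called. These shares, 21.3% and 19.1%, were near those of all tested genes, of which 20.4% were called higher and 19.5% lower, 39.9% in all. With library totals in place of TMM factors, 12 members were higher and 7 lower, beside 29.9% and 13.3% of all tested genes, so that the share of higher calls among all calls moved from 51.1% to 69.1%. The median log2 fold change was 0.07 over the tested members and 0.0075 over all tested genes, and 0.15 and 0.09 without TMM factors. RPKM of the groups did not overlap for 24 of the 47 members, against 52.0% of all tested genes. The set as a whole therefore changed about as often as other genes. Of the 10 higher members, Mmp23 and Adamts19 entered the test through their DISC1-Δ3 libraries alone. Direction also went with level among all tested genes, as given below.

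The counts are given by family. Of 13 tested MMPs 5 were higher and none lower in edgeR's test, of 4 TIMPs 2 were lower and none higher, of 12 tested ADAMs 5 were lower and 1 was higher, and of 15 tested ADAMTS genes 4 were higher and 1 was lower. Of 3 tested ADAMTS-like genes 1 was lower. Among all tested genes 20.4% were higher and 19.5% lower. Mmp23, a higher MMP, and Adamts19, a higher ADAMTS gene, entered the test through their DISC1-Δ3 libraries alone. Their place among the higher counts follows in part from that filter. The counts by family and role are small and are given as description only. The counts of 0, for lower MMPs and higher TIMPs, were also 0 at an unadjusted p under 0.05 in edgeR and in DESeq2, while both limma fits called 0 MMPs lower and 1 TIMP higher. In summed RPKM the members as a whole did not separate the groups, at 672 ± 13.1 (SD, n = 3) in wildtype and 669 ± 4.12 in DISC1-Δ3. The protease sum, without inhibitors, ADAMTS-like genes and ADAMs that lack the active-site motif, was 385 ± 9.56 against 393 ± 4.01. Members moved in opposite directions within these sums.

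**Figure D2:**
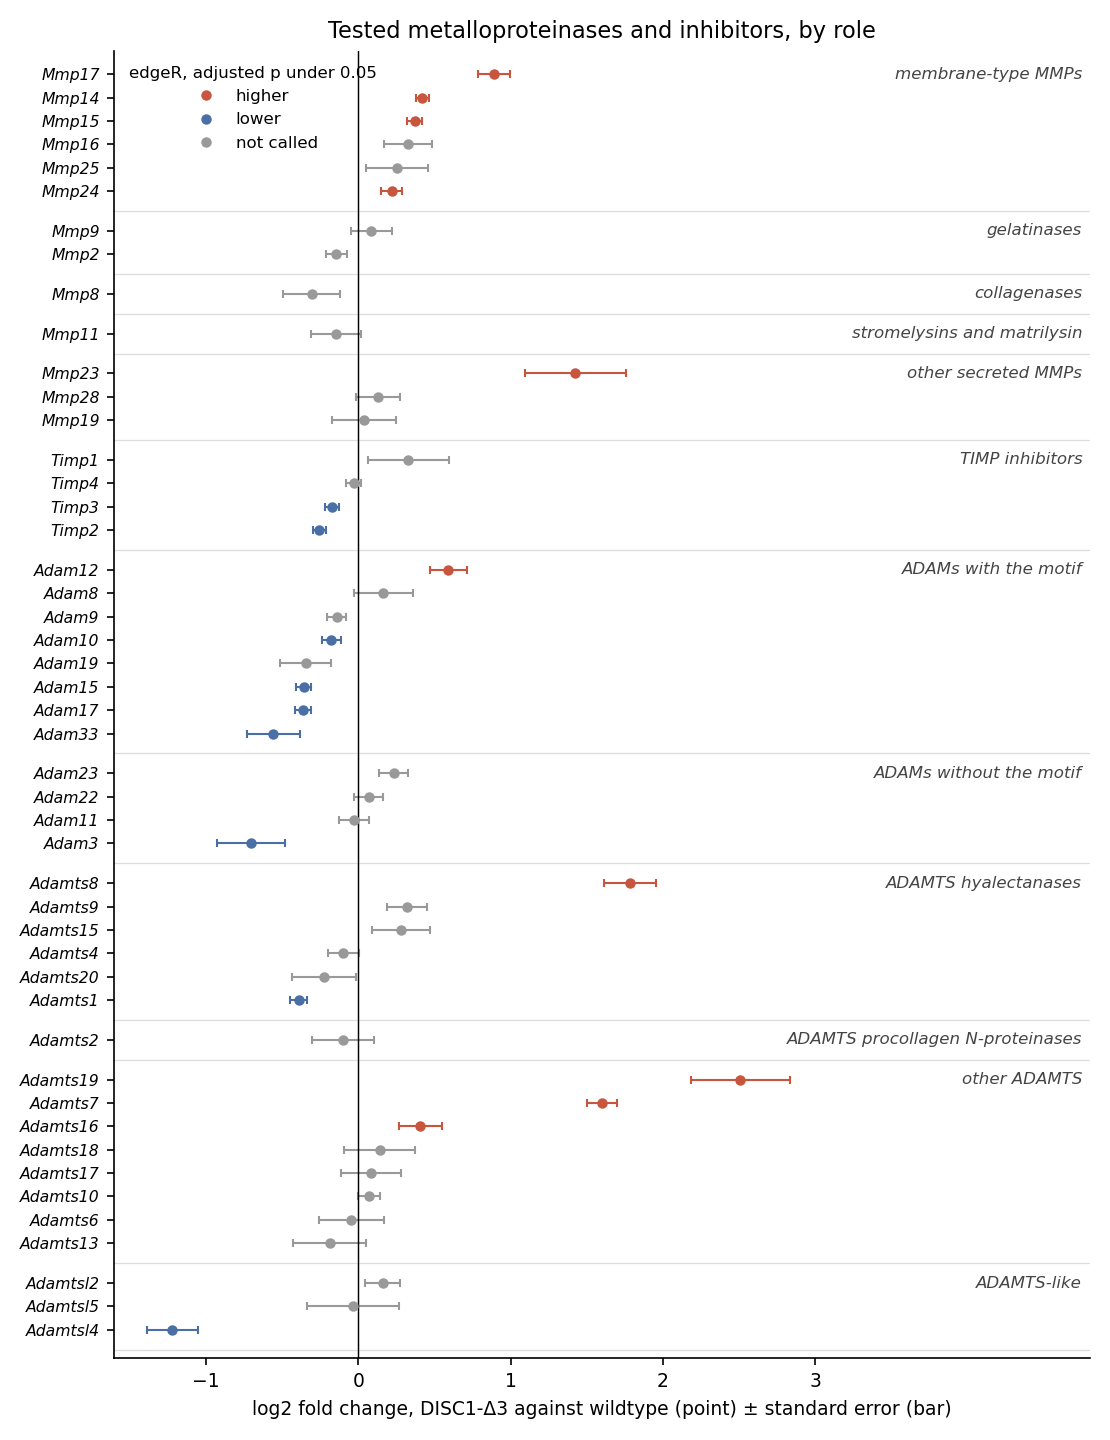
Log2 fold change of the 47 tested members in DISC1-Δ3 against wildtype (horizontal, points) with the standard error from edgeR's quasi-likelihood fit (bars), grouped by role and ordered by size. Red points are the 10 members called higher, blue points the 9 called lower and grey points the 28 not called. The 6 membrane-type MMPs all lie to the right of 0, and 6 of the 8 ADAMs with the active-site motif lie to the left.

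Membrane-type MMPs are held in the plasma membrane, where they cut matrix next to the cell and activate other proteases. All 6 were tested, 4 were higher in DISC1-Δ3 and none was lower, beside 20.4% higher and 19.5% lower among all tested genes. Their median log2 fold change was 0.35. Mmp14, also called MT1-MMP, is a collagenase of the cell surface that activates pro-MMP2 with TIMP2 as its partner. It stood at an RPKM of 50.2, 47.9 and 48.8 in the wildtype libraries and at 70.3, 70.6 and 67.2 in the DISC1-Δ3 libraries. Every DISC1-Δ3 library lay above every wildtype library, and the spread within groups was small (SD 1.15 and 1.89, n = 3). The fitted log2 fold change was 0.42 (SE 0.045, adjusted p = 6.45e-07, edgeR), a 1.34-fold rise. The fitted fold is below the ratio of the RPKM means here because the fit also applies TMM factors of 0.970 to 0.974 in wildtype and 1.02 to 1.04 in DISC1-Δ3, and RPKM does not.

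Mmp15 (MT2-MMP), a close relative of Mmp14, had an RPKM of 31.5, 30.4 and 29.98 in wildtype and of 43.0, 42.8 and 40.0 in DISC1-Δ3. The groups were again separate, and the fitted rise was 1.29-fold (log2 0.37, SE 0.049, adjusted p = 8.36e-06, edgeR). Mmp17 (MT4-MMP) is attached to the membrane by a lipid anchor in place of a membrane-spanning segment. Its RPKM was 3.38, 2.95 and 2.85 in wildtype, against 6.76, 6.13 and 5.39 in DISC1-Δ3, the largest rise among the membrane-type MMPs at 1.85-fold (log2 0.89, SE 0.10, adjusted p = 1.96e-06, edgeR). Mmp24 (MT5-MMP), which is expressed mainly in the nervous system, was at 8.69, 8.01 and 8.03 against 10.2, 10.4 and 9.79. Its groups did not overlap, and the fitted difference was the smallest of the 4 at log2 0.22 (SE 0.069, adjusted p = 0.0173, edgeR), with an adjusted p of 0.0656 to 0.111 when wildtype replicate 2 or 3 or DISC1-Δ3 replicate 1 or 2 was left out.

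The remaining 2 membrane-type MMPs had low levels and did not pass the test. Mmp16 (MT3-MMP) was at an RPKM of 0.83, 0.92 and 0.82 against 0.90, 1.02 and 1.16, with a fitted log2 difference of 0.32 (SE 0.16). Mmp25, a lipid-anchored enzyme known from neutrophils, was at 0.91, 0.65 and 1 against 0.96, 1.15 and 1.04 (log2 0.25, SE 0.21). For both genes the groups overlapped. Over all 6 genes the summed RPKM was 95.5, 90.9 and 91.4 in wildtype, against 132, 132 and 125 in DISC1-Δ3, of which Mmp14 and Mmp15 made up most.

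RefSeq gives 1 start site each for Mmp14 and Mmp15 in the promoter table used here, and their 250 bases before the start are shown because these were the higher-called members with the highest levels. They are written 5′ to 3′ on the gene's strand in the build GRCm38.p6, Mmp14 at chr14:54431348-54431597 (plus strand) and Mmp15 at chr8:95352046-95352295 (plus strand), with matches to the GC box GGGCGG on either strand in capitals.
Mmp14: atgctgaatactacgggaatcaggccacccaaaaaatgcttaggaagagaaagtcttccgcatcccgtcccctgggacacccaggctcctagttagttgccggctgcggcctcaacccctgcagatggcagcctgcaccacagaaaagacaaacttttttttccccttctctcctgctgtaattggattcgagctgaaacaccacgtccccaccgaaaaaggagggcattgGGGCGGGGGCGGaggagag
Mmp15: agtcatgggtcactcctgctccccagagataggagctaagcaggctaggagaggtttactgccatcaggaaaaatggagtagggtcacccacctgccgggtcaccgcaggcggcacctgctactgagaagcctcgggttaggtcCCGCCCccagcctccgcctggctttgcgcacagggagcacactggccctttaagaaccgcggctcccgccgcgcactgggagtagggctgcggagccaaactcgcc
The Mmp14 sequence holds 2 GC boxes side by side close to the start, and the Mmp15 sequence holds 1 on the other strand. At least 1 GC box was found in these 250 bases for 35.4% of 27025 genes with a promoter entry, and for 24 of the 43 members that have one. Such a match describes the letters of the sequence and is not evidence of binding.

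TIMPs inhibit MMPs 1 to 1, and TIMP3 also inhibits several ADAM and ADAMTS proteases. Of the 4 genes, 2 were lower in DISC1-Δ3 and none was higher, beside 19.5% lower and 20.4% higher among all tested genes. Timp2, the partner of Mmp14 in the activation of pro-MMP2, had the highest level of all 73 members in wildtype, at an RPKM of 131, 126 and 126, and stood at 116, 115 and 109 in DISC1-Δ3. The groups did not overlap, and the fall was a fitted log2 fold change of -0.25 (SE 0.043, adjusted p = 1.42e-04, edgeR). Timp3 was at 50.9, 47.0 and 47.4 against 43.2, 45.5 and 47.6. Its RPKM overlapped between the groups while the fit called it lower (log2 -0.17, SE 0.047, adjusted p = 0.00703, edgeR), and the call was lost when library totals without TMM factors were used (adjusted p = 0.129). The call was also lost in edgeR with scaling by RPKM sums (adjusted p = 0.175) and in both limma fits (adjusted p = 0.178 and 0.18).

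Timp4, an inhibitor with a narrow tissue range that includes the brain, was at 92.5, 96.2 and 94.7 in wildtype and at 98.3, 101 and 95.5 in DISC1-Δ3. Its fitted log2 difference was -0.03 (SE 0.049, adjusted p = 0.683, edgeR), and its sign was opposite on the RPKM scale, where the DISC1-Δ3 mean was the higher. Timp1, the TIMP best known to be induced by inflammation and injury, was far lower, at 1.68, 1.79 and 1.48 against 2.07, 2.24 and 2.28. The RPKM of Timp1 did not overlap, but its 17 to 22 reads per wildtype library and 22 to 27 per DISC1-Δ3 library gave a log2 difference of 0.33 with an SE of 0.27 (adjusted p = 0.347, edgeR). The 2 limma fits to log2 RPKM did call Timp1 higher (adjusted p = 0.0339 and 0.0394).

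The ratio of the TIMP sum to the membrane-type MMP sum, taken after the values were seen, does not depend on scaling between libraries. It was 2.89, 2.99 and 2.95 in wildtype, against 1.96, 1.99 and 2.04 in DISC1-Δ3. The membrane-type sum accounted for most of this shift, rising to 1.40 times its wildtype mean, while the TIMP sum went from 272 ± 3.20 to 259 ± 4.54 (SD, n = 3). RNA levels were measured, and protein or enzyme activity was not.

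**Figure D3:**
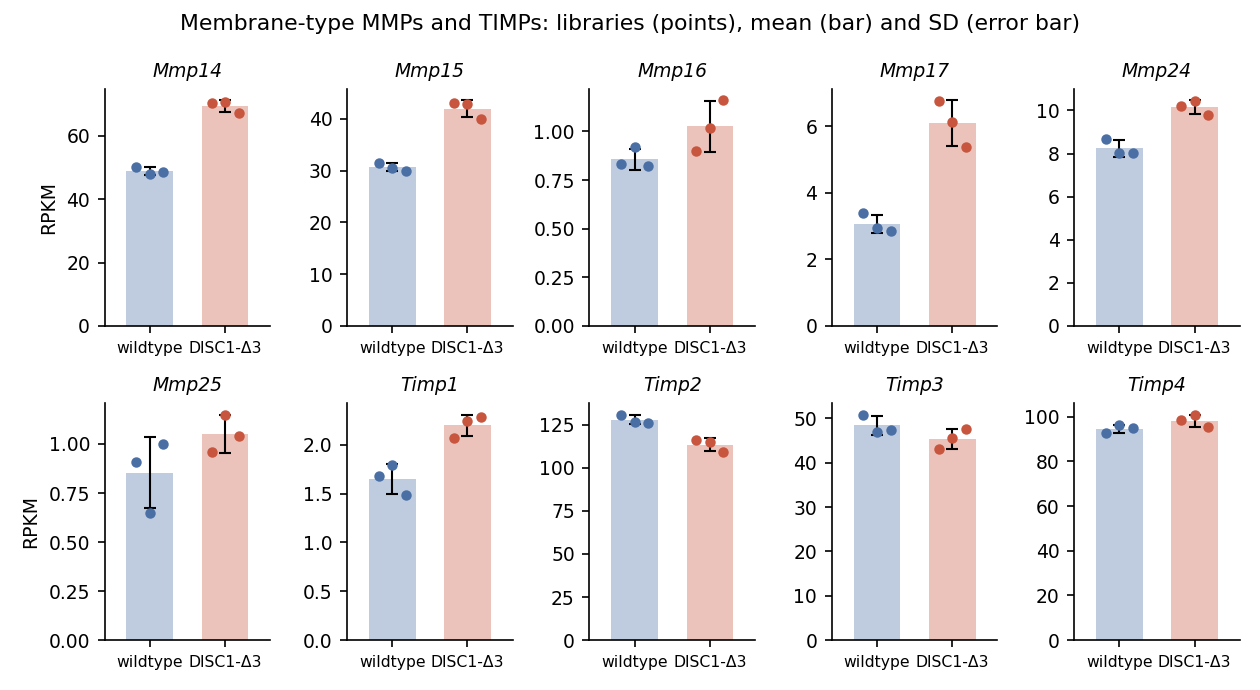
RPKM of the 6 membrane-type MMPs and the 4 TIMPs in each library (points), with the mean (bar) and SD (error bar) of 3 wildtype (blue) and 3 DISC1-Δ3 (red) libraries. Mmp14, Mmp15, Mmp17 and Mmp24 show separate groups with DISC1-Δ3 above, Timp2 shows separate groups with DISC1-Δ3 below, and the Timp3 and Timp4 groups overlap.

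Secreted MMPs gave 1 call among the 7 tested. The gelatinases Mmp2 and Mmp9 digest denatured collagen and basement membrane, and Mmp9 has been much studied in synaptic plasticity. Mmp2 was at an RPKM of 15.9, 14.9 and 14.97 in wildtype and at 14.3, 15.6 and 13.8 in DISC1-Δ3, with overlapping groups and a log2 difference of -0.14 (SE 0.069, adjusted p = 0.112, edgeR). It was called lower without DISC1-Δ3 replicate 2 (log2 -0.22, adjusted p = 0.0393). Mmp9 was at 2.84, 2.43 and 2.64 against 3.01, 3.27 and 2.58, with a log2 difference of 0.09 (SE 0.13, adjusted p = 0.650, edgeR).

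Mmp23 encodes a short MMP that is made as a membrane protein and released by cleavage. Its RPKM was 0.28, 0.46 and 0.35 in wildtype, from 5, 12 and 10 reads, and 1.31, 1.12 and 1.02 in DISC1-Δ3, from 27, 25 and 25 reads. The groups were far apart, with a fitted rise of log2 1.42 (SE 0.33, adjusted p = 0.00231, edgeR), and the gene entered the test through its DISC1-Δ3 libraries alone. The collagenase Mmp8 (1.42 to 1.67 against 1.22 to 1.53), Mmp11 (1.94 to 2.66 against 2.05 to 2.41), Mmp19 (0.79 to 1.21 against 0.93 to 1.11) and Mmp28 (1.63 to 1.83 against 1.88 to 2.17) were not called.

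ADAMs were split by whether a translated transcript of the gene holds the zinc-binding motif HEXXHXXGXXH, without which an ADAM is not expected to cut. ADAMTS proteases were not split by it, and no translated transcript of Adamts1, Adamts4, Adamts8, Adamts9, Adamts15 or Adamts20 held this exact motif. Of the 16 ADAMs with the motif 8 were tested, of which 4 were lower and 1 was higher in DISC1-Δ3. Among all tested genes 19.5% were lower and 20.4% higher. The median log2 fold change of these 8 ADAMs was -0.26. Their summed RPKM was 194, 190 and 183 in wildtype, against 164, 159 and 163 in DISC1-Δ3. Adam15 supplied most of this sum. It encodes a membrane protease whose outer part can bind integrins, and its RPKM was 126, 126 and 119 in wildtype, against 107, 102 and 97.3 in DISC1-Δ3. The groups were separate, with a log2 fold change of -0.36 (SE 0.047, adjusted p = 8.53e-06, edgeR).

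Adam17 and Adam10 are the main sheddases of this family. Adam17, known as TACE for its release of tumour necrosis factor, was at an RPKM of 18.4, 17.6 and 17.6 in wildtype and at 14.2, 14.5 and 15.4 in DISC1-Δ3. It was lower in every DISC1-Δ3 library than in any wildtype library (log2 -0.36, SE 0.055, adjusted p = 4.21e-05, edgeR). Adam10, which cuts Notch and the amyloid precursor protein, was at 27.6, 25.5 and 25.9 against 23.7, 22.7 and 27.6. Its highest DISC1-Δ3 value, in replicate 3, equalled the highest wildtype value, and the call was the least certain of the 19 by adjusted p (log2 -0.18, SE 0.061, adjusted p = 0.0284, edgeR). Across the alternatives the adjusted p of Adam10 ran from 1.16e-04, without DISC1-Δ3 replicate 3, to 0.317, with scaling by RPKM sums.

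Adam33 was at 1.71, 1.59 and 1.58 in wildtype and at 1.32, 0.94 and 1.09 in DISC1-Δ3, without overlap (log2 -0.56, SE 0.17, adjusted p = 0.0170, edgeR); its adjusted p was 0.0639 without wildtype replicate 1, 0.0739 without DISC1-Δ3 replicate 2 and 0.0509 in DESeq2. Adam12, or meltrin alpha, went the other way. Its RPKM was 0.87, 0.95 and 1.11 in wildtype, against 1.57, 1.52 and 1.62 in DISC1-Δ3, a rise of 1.51-fold (log2 0.59, SE 0.12, adjusted p = 9.28e-04, edgeR). Adam12 was thus the only one of the 12 tested ADAMs to be called higher. Adam9 (15.2 to 16.1 against 14.0 to 16.2), Adam19 (1.18 to 1.84 against 1.05 to 1.53) and Adam8 (1.28 to 1.35 against 1.10 to 1.84) overlapped between the groups and were not called, although Adam9 was called lower without DISC1-Δ3 replicate 3.

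The 250 bases before the start of Adam15, the most abundant ADAM, lie on the minus strand at chr3:89350029-89350278, and those of Adamts1, the most abundant ADAMTS gene, on the minus strand at chr16:85803114-85803363. They are shown as the most abundant proteases called lower, from RefSeq in GRCm38.p6 and 5′ to 3′ on the gene's strand, with GC boxes in capitals.
Adam15: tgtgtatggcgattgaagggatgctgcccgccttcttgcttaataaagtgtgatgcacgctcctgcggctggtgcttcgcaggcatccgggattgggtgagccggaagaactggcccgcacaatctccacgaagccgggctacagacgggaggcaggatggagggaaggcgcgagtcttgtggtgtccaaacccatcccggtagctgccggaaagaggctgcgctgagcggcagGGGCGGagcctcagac
Adamts1: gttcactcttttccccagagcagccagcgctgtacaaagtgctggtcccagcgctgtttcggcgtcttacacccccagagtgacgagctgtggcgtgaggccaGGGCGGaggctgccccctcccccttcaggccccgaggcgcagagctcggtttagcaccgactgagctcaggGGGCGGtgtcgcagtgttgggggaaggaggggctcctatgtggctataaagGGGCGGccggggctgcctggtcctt
Adam15 holds 1 GC box and Adamts1 holds 3. All 7 lower members with a promoter entry held at least 1 such box, and so did 3 of the 4 higher members with an entry and 11 of the 18 members tested but not called. Of the 14 members not tested that have an entry, 3 held one, beside 35.4% of all 27025 genes. The box was chosen after the data were seen, so these counts are no result about the lower members.

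Among the 10 ADAMs without the motif, 4 were tested. Adam11, Adam22 and Adam23 encode receptors on nerve cells, and ADAM22 and ADAM23 bind the secreted protein LGI1 at synapses. Adam11 was at 4.27, 3.81 and 3.84 against 4.11, 4.61 and 3.63 and was not called (log2 -0.03, SE 0.10). Adam23 was at 3.04, 2.97 and 2.48 against 3.70, 3.25 and 3.58, which did not overlap and missed the threshold (log2 0.23, SE 0.097, adjusted p = 0.0666, edgeR). With library totals in place of TMM, Adam23 was called higher.

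Adam22 gave different answers in reads and in RPKM. Its RPKM was 1.87, 1.77 and 1.74 in wildtype, against 2.47, 2.25 and 2.27 in DISC1-Δ3, without overlap. Its reads, however, numbered 200, 237 and 238 against 240, 236 and 273, with a fitted log2 difference of 0.07 (SE 0.096, adjusted p = 0.604, edgeR). Dividing reads by RPKM and library total gives the transcript length that the authors' RPKM assumed, which was 8104 ± 284 bases in wildtype and 6930 ± 489 bases in DISC1-Δ3 (SD, n = 3), a ratio of 0.855. Among 28 members with an RPKM of at least 1 in every library, 26 had a ratio within 3% of 1, the other exception being Adamts7 at 1.06, and 8.10% of all 11976 such genes lay beyond 3%. Which isoforms of Adam22 were present was not tested.

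Adam3, a sperm surface protein, was at 1.20, 1.24 and 1.11 in wildtype and at 0.79, 1.05 and 0.58 in DISC1-Δ3, from 41 to 47 and 25 to 31 reads. It was called lower (log2 -0.70, SE 0.22, adjusted p = 0.0171, edgeR). The call was lost in DESeq2 (adjusted p = 0.0692) and in both limma fits (adjusted p = 0.0636 and 0.0704). It was also lost in edgeR when wildtype replicate 1 or 2 or DISC1-Δ3 replicate 3 was left out (adjusted p = 0.0506 to 0.0547). Adam3 lies on chromosome 8 between Adam5 and Adam18, another testis ADAM, which was too low to be tested. Adam18 had 1, 1 and 2 reads in wildtype, against 21, 15 and 21 reads in DISC1-Δ3. Set against a floor of 3 reads in a library, which is at most 0.219 CPM (reads scaled to the library total) in these libraries, the mean CPM of Adam18 in DISC1-Δ3 was at least 5.65-fold higher. Adam18 was picked for having at most 3 reads in every library of 1 group and at least 10 in every library of the other. A large fold follows from that choice, and the bound is no test. In reads the neighbours Adam3 and Adam18 differed between the groups in opposite directions, while Adam5 and Adam32 in the same cluster stayed at 7 reads or fewer in every library. Adam9, also in this cluster, had 855 to 975 reads in wildtype, against 794 to 1014 in DISC1-Δ3, and was not called. Intervals and floors of this kind cover counting error only.

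ADAMTS proteases held the 3 largest fitted rises among the tested members. Adamts7, which cuts cartilage oligomeric matrix protein, was at an RPKM of 1.78, 1.95 and 1.6 in wildtype and of 5.49, 5.05 and 5.62 in DISC1-Δ3. This 3.03-fold difference had the lowest adjusted p of all members (log2 1.6, SE 0.099, adjusted p = 6.13e-10, edgeR). The gene's exons share 122 bases with those of Tbc1d2b on the opposite strand, and Tbc1d2b had 683, 791 and 779 reads in wildtype, against 645, 593 and 664 in DISC1-Δ3, the opposite direction. Adamts19, a protease whose substrates are little known, had 11, 11 and 5 reads in wildtype, against 45, 45 and 75 in DISC1-Δ3. Its RPKM was 0.19, 0.15 and 0.07 against 0.76, 0.62 and 1.06, the largest fitted fold change among the tested members at log2 2.51 (SE 0.32, adjusted p = 7.19e-06, edgeR). It entered the test through its DISC1-Δ3 libraries alone. Adamts16, at 1.68, 1.56 and 1.20 against 2.25, 1.83 and 2.01, rose by less (log2 0.41, SE 0.14, adjusted p = 0.0270, edgeR), and its adjusted p was 0.0728 to 0.134 without wildtype replicate 2 or 3 or DISC1-Δ3 replicate 1. The adjusted p of Adamts16 was 0.0723 in DESeq2 and 0.0517 in limma with a pseudocount of 0.1.

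The hyalectanases are the ADAMTS enzymes that cut aggrecan, versican, brevican and neurocan. Adamts1 carried most of their RNA, at 53.9, 56.2 and 53.7 in wildtype, against 42.6, 40.5 and 49.4 in DISC1-Δ3. It was lower in all 3 DISC1-Δ3 libraries, with replicate 3 the closest to wildtype (log2 -0.39, SE 0.056, adjusted p = 2.30e-05, edgeR). Adamts8, a far less abundant enzyme of the group, went from 0.53, 0.46 and 0.51 to 1.81, 2.00 and 1.63, a 3.44-fold rise (log2 1.78, SE 0.17, adjusted p = 1.80e-07, edgeR). Adamts15 lies next to Adamts8 on chromosome 9 and was not called, at 0.65, 0.60 and 0.53 against 0.95, 0.77 and 0.64 (log2 0.28, SE 0.19). Adamts4, an aggrecanase found in oligodendrocytes, was at 5.49, 4.65 and 4.50 against 5.27, 4.77 and 4.42, with a log2 difference of -0.10 (SE 0.10, adjusted p = 0.493, edgeR).

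Adamts9, at 1.07, 0.93 and 0.89 against 1.26, 1.18 and 1.34, did not overlap and missed the threshold (log2 0.32, SE 0.13, adjusted p = 0.0584, edgeR); with library totals in place of TMM it was called higher. Adamts20 was at 0.82, 0.74 and 0.63 against 0.45, 0.33 and 0.78, and its highest DISC1-Δ3 value lay inside the wildtype range. The summed hyalectanase RPKM was 62.4 ± 1.34 in wildtype and 53.6 ± 4.48 in DISC1-Δ3 (SD, n = 3). The rise of Adamts8 was small in that sum beside the fall of Adamts1. Adamts2, the only tested gene of the 3 procollagen N-proteinases, was at 0.44 to 0.60 against 0.42 to 0.58. The other 5 tested ADAMTS genes, Adamts6, Adamts10, Adamts13, Adamts17 and Adamts18, had log2 differences between -0.19 and 0.14 and were not called; Adamts10, a protease linked to fibrillin microfibrils, was the highest of them at 7.84 to 8.74 against 8.83 to 9.57.

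**Figure D4:**
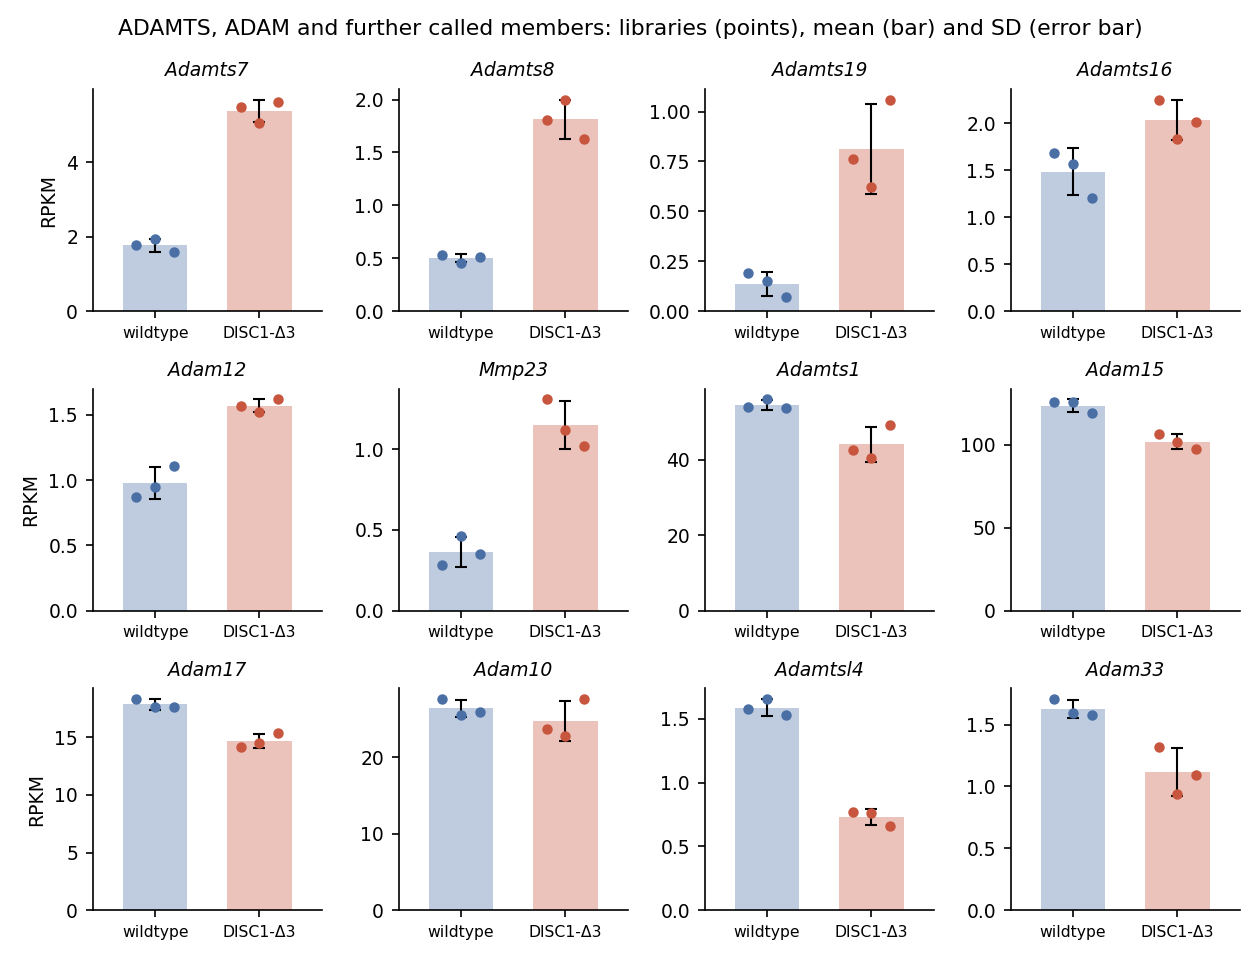
RPKM of 12 ADAMTS, ADAM, ADAMTS-like and MMP members called in either direction, in each library (points), with the mean (bar) and SD (error bar) of 3 wildtype (blue) and 3 DISC1-Δ3 (red) libraries. Each panel has its own axis from 0. The first 6 panels show members called higher and the last 6 members called lower, of which the Adam10 groups overlap.

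ADAMTS-like proteins bind matrix without cutting it. Adamtsl4, which binds fibrillin-1, was at 1.58, 1.66 and 1.53 in wildtype and at 0.77, 0.76 and 0.66 in DISC1-Δ3, the largest fitted fall among the tested members (log2 -1.22, SE 0.17, adjusted p = 1.53e-05, edgeR). It was the only member whose called fall reached 1 on the log2 scale, and Adamts8, Adamts7, Adamts19 and Mmp23 were called higher by 1 or more, the last 2 of which passed the filter through their DISC1-Δ3 libraries alone. Adamtsl2 (2.74 to 2.90 against 3.13 to 3.53) and Adamtsl5 (0.44 to 0.75 against 0.49 to 0.71) were not called.

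Calls were also counted by level. Of 11 members with a wildtype mean RPKM over 10, 2 were higher (Mmp14 and Mmp15) and 6 were lower in DISC1-Δ3. Of 20 members between 1 and 10, 4 were higher and 3 were lower, and of 16 below 1, 4 were higher and none was lower, also at an unadjusted p under 0.05 in edgeR and in DESeq2 and limma. Adamts19 and Mmp23, 2 of these last 4, entered the test through their DISC1-Δ3 libraries alone, and all tested genes showed a like order, so these counts are no result about the members. Of all tested genes the shares were 19.8% higher and 26.8% lower over 10, 19.4% and 15.1% between 1 and 10, and 27.5% and 4.65% below 1. By level per length, Timp2 led in wildtype with 19.0% of the summed member RPKM, followed by Adam15 (18.4%), Timp4 (14.1%), Adamts1 (8.12%), Mmp14 (7.28%), Timp3 (7.20%) and Mmp15 (4.56%). In that order Mmp14 and Timp3 overlapped in RPKM between wildtype libraries, and every other pair of neighbours among the 7 was separate. In DISC1-Δ3 Mmp14 rose to 10.4% and stood above Adamts1 at 6.60%. These 7 genes together held 78.6% of the sum in wildtype and 76.9% in DISC1-Δ3.

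The 26 members that were not tested had at most an RPKM of 0.66 in any library, and 15 of them had 3 reads or fewer in every library. The low members included the stromelysin Mmp10, the collagenase Mmp13, the enamel protease Mmp20, Mmp27 and most testis ADAMs. Mmp7, or matrilysin, is a known target of the Wnt pathway in gut. It had 0, 0 and 0 reads in wildtype, against 1, 2 and 2 in DISC1-Δ3, all within the floor of 3 reads, so no fold is given. The lectican-cutting Adamts5 (14 to 26 against 13 to 33 reads), the macrophage elastase Mmp12 (6 to 11 against 6 to 14 reads), Adamts12 (21 to 29 against 29 to 42 reads), Adamts14 (23 to 32 against 35 to 41 reads) and Adamtsl1 (16 to 35 against 35 to 46 reads) were above the floor and below the limit for testing.

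A cluster of MMP genes on chromosome 9 (chr9:7272514-7699585) holds 7 members of the set, of which only Mmp8 was tested. Among them are the low genes Mmp7, Mmp10, Mmp12 and Mmp13. Their promoters are shown as a contrast to the GC boxes above, since each holds the AP-1 site TGANTCA, through which several MMP genes are known to be induced. The 60 bases from 80 to 21 before the start are given 5′ to 3′ on the plus strand, from RefSeq in GRCm38.p6, with the AP-1 match in capitals. They lie at chr9:7692010-7692069 (Mmp7), chr9:7502262-7502321 (Mmp10), chr9:7347294-7347353 (Mmp12) and chr9:7272434-7272493 (Mmp13).
Mmp7: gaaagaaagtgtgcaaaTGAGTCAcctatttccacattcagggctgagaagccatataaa
Mmp10: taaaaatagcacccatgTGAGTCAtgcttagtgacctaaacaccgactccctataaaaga
Mmp12: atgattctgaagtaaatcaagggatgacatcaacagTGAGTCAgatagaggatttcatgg
Mmp13: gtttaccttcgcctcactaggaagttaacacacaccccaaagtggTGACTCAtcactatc
The match began 63 bases before the start in Mmp7 and Mmp10, 44 in Mmp12 and 35 in Mmp13. In the 300-base window, which adds 50 bases after the start, AP-1 sites were found on either strand for 8 of the 43 members with an entry (18.6%) and for 8.97% of 27025 genes. The other 4 were Mmp20, Adam19, Adam1b and Adam20, and none was among the 4 higher or the 7 lower members with an entry. The TCF/LEF core CTTTGAT, through which the Wnt pathway acts on genes, was found for Mmp7 alone among the 43 members and for 4.29% of all genes. An absent match says only that these letters are not in this window.

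Genes that work with the metalloproteinases were counted from lists of 30 further genes, of which 25 were tested, 8 were higher and 4 were lower. Of all tested genes 20.4% were called higher and 19.5% lower. The lists were chosen with earlier results of these data known, and the counts by list are small, so they are given as description only. Of 4 proprotein convertases, which cut off the inhibitory propeptide of membrane-type MMPs, ADAMs and ADAMTS proteases, 1 was higher. That was Pcsk6, at an RPKM of 6.53, 6.48 and 7.09 against 10.8, 9.66 and 9.98 (log2 0.51, SE 0.074, adjusted p = 2.36e-05, edgeR), while Furin was at 25.6 to 28.1 against 27.3 to 30.2 (log2 0.04, SE 0.055). Of 3 ADAM17 partners 1 was higher. Rhbdf2 (iRhom2), which carries ADAM17 to the cell surface, was at 7.88 to 8.51 against 10.7 to 10.9 (log2 0.36, adjusted p = 7.08e-04, edgeR), the opposite direction to Adam17. Of 5 tested TspanC8 tetraspanins, which carry ADAM10, 1 was higher and 2 were lower. Tspan5 went from 21.8, 22.0 and 21.8 to 41.1, 39.7 and 37.9 (log2 0.77, SE 0.053, adjusted p = 2.32e-09, edgeR), while Tspan14 (log2 -0.32) and Tspan15 (log2 -0.18) were lower.

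In the plasminogen system, which activates several pro-MMPs, the activators Plat (log2 0.37) and Plau (log2 0.21) and the receptor Plaur (log2 0.23) were higher. Of 6 proteoglycan substrates 2 were higher and 1 was lower. Acan (log2 0.66) and Cspg4 (log2 0.46) were higher, and Bcan, which encodes brevican, was lower (log2 -0.14, SE 0.044, adjusted p = 0.0155, edgeR). Reck, an inhibitor anchored in the membrane, was at 1.44, 1.57 and 1.13 against 2.11, 1.54 and 2.22 and missed the threshold (log2 0.38, SE 0.17, adjusted p = 0.0748, edgeR), and the astacin Bmp1 was not called (log2 -0.07, SE 0.045).

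DISC1-Δ3 replicate 3 stood apart from the other DISC1-Δ3 libraries, where the chi-square over genes, divided by its degrees of freedom, was 5.42 and 5.01 against replicates 1 and 2, beside 2.60 between those and 1.81 to 2.99 among wildtype libraries. Among the members its RPKM was 2.02 times the mean of the other 2 for Adamts6, 2.00 times for Adamts20, 1.54 times for Adamts19 and 0.630 times for Adam3. Without this library 10 members were higher and 9 lower, of which 18 were shared with the full comparison; Adam3 was lost and Adam9 was gained. The 4 membrane-type MMPs, the 2 TIMPs, Adam12 and the 4 ADAMTS genes kept their calls.

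How reads were assigned to genes by strand was not given in the sources used here, and 7 of the 19 called members share exon bases with another annotated gene. Timp3 lies within Syn3 and shares 1733 bases with it on the opposite strand, and Syn3 had 50 to 97 reads per library beside 2788 to 3518 for Timp3. Adam17 shares 311 bases with Iah1, which had 201 to 266 reads against 870 to 1246. The exon overlaps of Adam15, Adam3, Adamts8 and Mmp24 are with genes not compared here. The part of shared reads in any of these differences was not tested.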

How the data were processed

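RNA of Pdgfrα-immunopanned OPCs was sequenced in 6 libraries (single-end, BGISEQ-500), 3 wildtype and 3 DISC1-Δ3, grouped by the deposited labels. The authors deposited expected counts, in which reads matching several genes are divided, and RPKM, the count per transcript length and library total. Per the labels the submitters used Bowtie2 2.2.5 and mm10; the counter and annotation are not given in the sources used here. The methods name DESeq2. Columns of group averages were not used.

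Members and gene lists were chosen with earlier results of these data known. Expected counts were rounded and tested with edgeR 4.0.16 (R 4.3.3, quasi-likelihood, TMM, genotype as the only term, two-sided) for genes reaching an RPKM of 0.5 in 3 or more libraries, with Benjamini-Hochberg adjustment over 13792 genes and a threshold of 0.05. SEs are the log2 fold change divided by the square root of F. On simulated counts for 13792 genes the fit recovered 96 of 100 genes changed by log2 1 and 98 of 100 changed by log2 2. There were 16 false calls. Smaller changes were not simulated, so the simulation says nothing about calls such as Adam10, Timp3 or Mmp24. Alternatives were median-of-ratios scaling, library totals, RPKM sums (added after seeing the data), no filter, an RPKM of 1, DESeq2 1.42.0, limma 3.58.1 on log2 RPKM with pseudocounts of 1 and 0.1, a block for the replicate number, robust empirical Bayes, each library left out, and a log2 fold change of at least 1. Totals of 13716619 to 16417219 reads make 3 reads, taken as the floor, 0.183 to 0.219 CPM.

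Named with values were the 4 TIMPs, Mmp2, Mmp7, Mmp9, Mmp14, Adam10, Adam17, Adamts4 and Adam22 for their roles, and every member called; other members named, such as Adam18, were chosen after their values were seen. A gene of the further lists is not reported here. ADAMs were split by translating GENCODE coding transcripts, in place of the planned RefSeq proteins. Promoters of 43 of the 73 members were matched in a RefSeq table (GRCm38.p6, the assembly of mm10); the GC box was added after seeing the data.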

Additional observations from a re-analysis of the deposited data

How the results depend on the processing

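Of the 19 called members, 13 kept their call and sign under every other scaling, filter, tool, block or left-out library in which they were tested; Adamts19 was not tested at an RPKM of 1, and a minimum fold change, given below, left fewer. The calls of Adam10, Timp3, Adam3, Adam33, Adamts16 and Mmp24 were lost under some alternatives. Members that gained a call under some alternative included Adam22, Timp1 and Mmp2. Adam23 and Adamts9 also gained one with library totals and RPKM sums, and Adam9 without DISC1-Δ3 replicate 3. The cause was not tested. No called member changed sign. Signs were followed across alternatives for 25 tested members, those called and those named for their roles. Of those not called, Timp4 changed sign with library totals (log2 0.05), RPKM sums (0.06) and limma (0.06), and Mmp9 without DISC1-Δ3 replicate 2 (-0.02), neither with a call. Some other members not called also changed sign. For example, 3 of 4 tested ADAMs without the motif lay above 0 with library totals, and 2 with median-of-ratios scaling. With the replicate number as a block 10 members were higher and 9 lower, all 19 shared with the fit without it, among 2774 higher and 2655 lower genes, 5429 in all. Deviations of same-numbered samples from their group means had correlations of 0.044, 0.026 and -0.029, so no shared deviation by number was seen. Such values cannot show whether the samples were handled in pairs. A log2 fold change of at least 1 left 4 higher and 1 lower member, among 527 genes in place of 5498. DESeq2 called 9 and 7 members, limma 12 and 6 with a pseudocount of 1 and 11 and 6 with 0.1, scaling by RPKM sums 12 and 7, no filter 11 and 9, and a filter at an RPKM of 1 9 and 9. With 1 library left out, 8 to 11 members were higher and 6 to 9 lower, among 4342 to 6232 genes. Depth limits the members below an RPKM of 1, where 3 libraries per group and 5 to 45 reads, as for Adamts19 and Mmp23 in most libraries, leave wide errors.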
